A study of Mus musculus with 22 samples.

Results

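Metallothioneins and zinc transporters were followed through 22 mouse liver RNA-seq libraries by 5 genes: the metallothioneins Mt1 and Mt2, the zinc exporter Slc30a1 and the zinc importers Slc39a4 and Slc39a14. The genes were chosen by name, as 5 of the 18716 rows of the deposited expression table, and all 5 were measured in every library. The livers of all groups carried the genotype Fah-/-, in which the final step of tyrosine catabolism, fumarylacetoacetate hydrolase, is missing, and each library was made from polyadenylated RNA of whole frozen liver. The 7 YC livers came from mice that had received td-hepatocytes and then the treatment called YC, and were taken on day 28 after NTBC was withdrawn. The 8 vehicle livers came from mice with the same cell transplant and the same day 28, given vehicle in place of YC. The 7 D0 livers were taken on day 0, were called normal liver and carry no mention of a transplant. NTBC is a drug that blocks tyrosine breakdown upstream of the missing enzyme and so protects livers that lack Fah. The labels spell out neither YC nor td, and they give no age, sex or strain. They do not say that each library came from a separate mouse, and p-values here reflect only how these libraries spread, which may be partly technical. A day 28 liver can hold both host and transplanted hepatocytes, and in whole tissue fewer cells of a type and less RNA per cell cannot be told apart. Vehicle and D0 livers differ in day, transplant and NTBC withdrawal together, and these cannot be told apart.

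Metallothioneins are small proteins rich in cysteine that bind zinc and copper, and in hepatocytes they hold much of the exchangeable zinc. Transcription of Mt1 and Mt2 is raised by zinc through the transcription factor MTF1, which binds short metal response elements in their promoters, and also by glucocorticoids, by IL-6 in the acute phase and by oxidative stress. Slc30a1 (ZnT1) carries zinc out of the cell and is another MTF1 target. Slc39a4 (ZIP4) brings zinc into the cell and is best known for uptake from the diet in the intestine, where its loss in humans causes acrodermatitis enteropathica. Slc39a14 (ZIP14) brings zinc into hepatocytes during the acute phase and also carries manganese and iron.

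Promoter sequence was at hand for 3 of the 5 members, Mt1, Mt2 and Slc30a1, which are the members known as MTF1 targets and are shown for that reason. Each run is the 250 bases before the RefSeq start (build GRCm38.p6, plus strand), in lower case, with capitals at matches on either strand to TGCACNC or TGCGCNC, the core of the metal response element, or to TGACNNNGC, the core of the antioxidant response element bound by NRF2. The spans are chr8:94178839-94179088 for Mt1, chr8:94172368-94172617 for Mt2 and chr1:191906531-191906780 for Slc30a1.
Mt1: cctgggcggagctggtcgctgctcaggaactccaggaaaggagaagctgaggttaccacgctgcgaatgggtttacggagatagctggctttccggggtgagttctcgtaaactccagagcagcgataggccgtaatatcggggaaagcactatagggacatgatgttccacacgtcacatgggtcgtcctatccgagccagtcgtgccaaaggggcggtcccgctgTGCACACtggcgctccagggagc
Mt2: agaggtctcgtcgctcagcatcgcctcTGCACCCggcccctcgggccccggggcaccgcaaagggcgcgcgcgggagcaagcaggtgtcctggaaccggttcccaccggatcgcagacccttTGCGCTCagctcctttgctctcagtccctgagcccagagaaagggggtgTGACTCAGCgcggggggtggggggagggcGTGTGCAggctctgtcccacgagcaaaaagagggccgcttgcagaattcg
Slc30a1: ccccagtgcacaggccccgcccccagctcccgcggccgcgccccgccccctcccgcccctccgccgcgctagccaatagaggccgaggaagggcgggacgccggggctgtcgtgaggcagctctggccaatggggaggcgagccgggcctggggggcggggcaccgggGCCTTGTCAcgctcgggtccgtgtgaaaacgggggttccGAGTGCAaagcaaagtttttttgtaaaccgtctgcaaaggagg
Counted over these bases and the first 50 bases after the start, the metal response core was found 3 times at Mt1, 4 times at Mt2 and 2 times at Slc30a1. Among 27025 promoter windows of the same length, 25.6% held at least 1 such match, 7.11% at least 2, 2% at least 3 and 0.503% at least 4. The antioxidant core was found 1 time at Mt2, 1 time at Slc30a1 and 0 times at Mt1, and 12.5% of all windows held it. None of these matches overlapped another. In Mt1 the printed run ends where RefSeq starts the gene; GENCODE lists other Mt1 transcripts that start downstream of it, and bases past this window were not searched. In Mt2 GENCODE starts the gene at chr8:94172664, past the end of the printed run at chr8:94172617, so its count depends on the start used. A match is a string of letters and not a measured binding site. Of 19 other zinc transporter genes with a window, 9 held at least 1 metal response core. Slc30a4 and Slc30a10 held 3 each, as many as Mt1, with overlap among those at Slc30a10.

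All 5 members are protein-coding genes with more than 1 transcript in the mm10 annotation, and the table gives 1 value for each gene. Mt1 spans chr8:94179082-94180327 and Mt2 chr8:94172664-94173568 on the plus strand, next to each other in a cluster that also holds Mt3 at chr8:94152607-94154146 and Mt4 at chr8:94137197-94139031. Slc30a1 spans chr1:191906767-191913247 on the plus strand. Slc39a4 lies at chr15:76612383-76617384 and Slc39a14 at chr14:70303469-70351425, both on the minus strand. Mt1 and Mt2 are close relatives, and the sources used here do not say how reads shared by near-identical sequence were divided.

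Depth recovered from the steps of low values was 50300000 to 82900000 for YC, 51200000 to 71900000 for vehicle and 51200000 to 66300000 reads for D0 livers. Values are RPKM, reads scaled to transcript length and library size, so levels can be set side by side between genes. Fah itself, the gene of the genotype, was at 31.5 to 407 RPKM in YC livers, 271 to 542 RPKM in vehicle livers and 21.1 to 38.7 RPKM in D0 livers, and the labels do not say which part of the gene the allele lacks. YC 6 and YC 7 stood apart from the other YC livers, with Fah at 41.3 and 31.5 RPKM and the acute phase gene Saa1 at 5.33 and 3.77 RPKM, against Saa1 at 363 RPKM or more in YC 1 to YC 5. YC 4 and vehicle 1 stood apart by pancreatic transcripts, given with the cell type markers. Y-linked transcripts summed to at least 1 RPKM in all 8 vehicle livers, in YC 1 to YC 3 and in 0 of 7 D0 livers. As deposited, the median log2 fold change of all 12537 genes tested was 0.31 in YC against vehicle, 0.01 in vehicle against D0 and 0.25 in YC against D0 livers. Scaling each library by its median ratio to the others brought these to 0.02, 0.03 and -0.02, so values of the members under this scaling are given beside those as deposited. Differences below come from limma on log2(RPKM + 0.5) with all livers in 1 model, and adjusted p-values are adjusted over all genes tested.

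By group mean, Mt1 was the most abundant member in all 3 groups. In YC livers Mt1 had a lowest value of 344, a median of 387 and a highest value of 828 RPKM. In vehicle livers it had 117, 285 and 617 RPKM, and in D0 livers 456, 679 and 766 RPKM. The high YC values were those of YC 1 and YC 2, at 703 and 828 RPKM, above every vehicle liver, while the other 5 YC livers lay between 344 and 453 RPKM and overlapped the vehicle range. All vehicle livers but vehicle 5 were below the lowest D0 liver. Mean levels were 491 ± 194 RPKM for YC (SD, n = 7), 306 ± 156 RPKM for vehicle (SD, n = 8) and 634 ± 130 RPKM for D0 livers (SD, n = 7). Mt1 was thus highest in D0, then YC, then vehicle livers. For vehicle against D0 livers Mt1 fell by 1.19 ± 0.28 on the log2 scale (SE, limma adjusted p = 0.000803). For YC against vehicle livers it rose 1.70-fold, a log2 change of 0.76 ± 0.28 (SE, limma adjusted p = 0.0243). That call was lost with median-ratio scaling (log2 0.42, limma adjusted p = 0.25), in the fit with the replicate number as a block (log2 0.59, limma adjusted p = 0.0702) and when YC 1, YC 2 or vehicle 8 was left out (log2 0.66, 0.62 and 0.59). No other group has a number 8, so the block fit sets vehicle 8 aside and is not a check separate from leaving it out. Among livers with Y-linked transcripts the difference was 1.10 on the log2 scale, with a limma adjusted p of 0.0516. YC and D0 livers, the upper neighbours in the order, did not differ beyond their spread as deposited (log2 -0.42 ± 0.28, SE, limma adjusted p = 0.214), but Mt1 was lower in YC livers with median-ratio scaling (log2 -0.74, limma adjusted p = 0.0342) and among livers without Y-linked transcripts (log2 -0.68, limma adjusted p = 0.0125).

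Mt2 too was lowest in vehicle livers. In YC livers it had a lowest value of 220, a median of 336 and a highest value of 732 RPKM, in vehicle livers 44.0, 108 and 464 RPKM, and in D0 livers 280, 397 and 521 RPKM. YC 1 and YC 2, at 732 and 660 RPKM, lay above all vehicle and D0 livers. Vehicle 5 held the 464 RPKM, and every other vehicle liver was at 191 RPKM or below, under all 7 YC livers and all 7 D0 livers. Mean levels were 420 ± 200 RPKM for YC (SD, n = 7), 157 ± 132 RPKM for vehicle (SD, n = 8) and 383 ± 80.9 RPKM for D0 livers (SD, n = 7). Mt2 rose 3.05-fold in YC over vehicle livers, a log2 change of 1.61 ± 0.35 (SE, limma adjusted p = 0.000586), and the change was 1.27 with median-ratio scaling. For vehicle against D0 livers it fell by 1.58 ± 0.35 on the log2 scale (SE, limma adjusted p = 0.000467). YC and D0 livers were neighbours that did not differ beyond their spread (log2 0.03 ± 0.36, SE, limma adjusted p = 0.951), and the sign of this difference turned under median-ratio scaling (log2 -0.29) and quantile normalization (log2 -0.02).

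**Figure D1:**
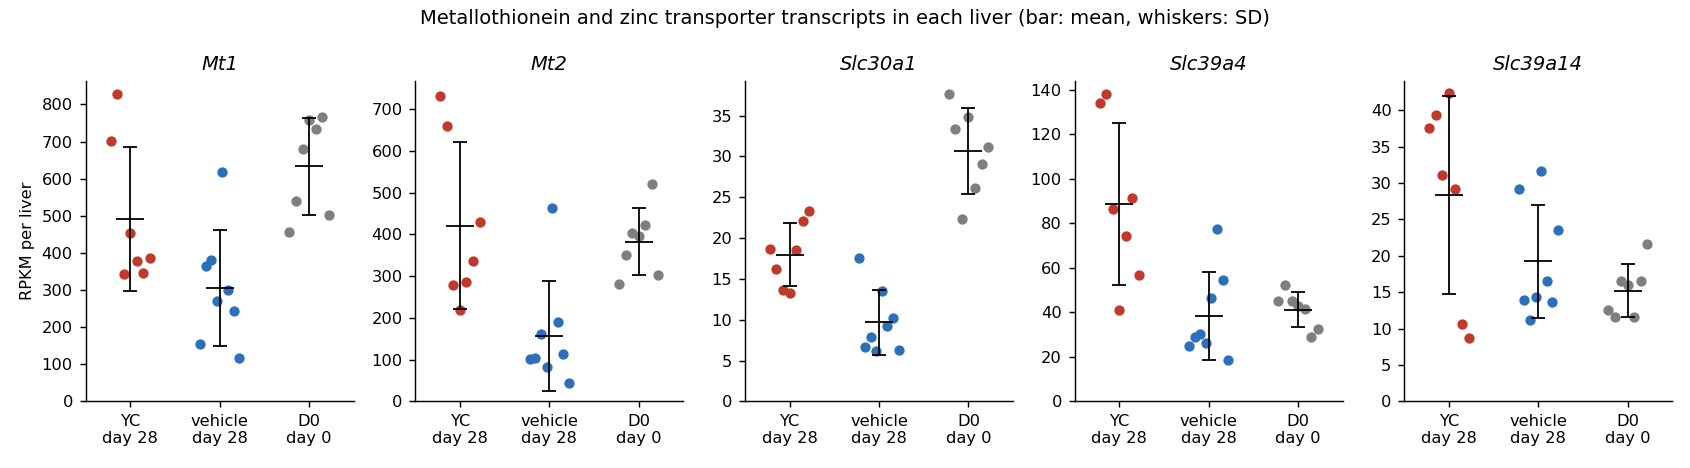
RPKM of the 5 members in each of 22 livers, with 1 point per liver, the group mean as a bar and the SD as whiskers, for YC, vehicle and D0 livers from left to right on linear axes from 0. Slc30a1 in all 8 vehicle livers lies below all 7 D0 livers, and vehicle 5 is the high vehicle point of Mt1 (617 RPKM) and Mt2 (464 RPKM).

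Because Mt1 and Mt2 sit in the same library, their ratio does not change when a library is multiplied by 1 factor. Mt2 RPKM divided by Mt1 RPKM ran from 0.485 through a median of 0.811 to 1.11 in YC livers, from 0.282 through 0.443 to 0.752 in vehicle livers and from 0.524 through 0.603 to 0.681 in D0 livers. In YC 1 and YC 7 Mt2 exceeded Mt1, which it did in no vehicle or D0 liver, and the lowest YC ratio was that of YC 4. The D0 ratios formed a narrow band, and vehicle ratios lay on both sides of it. The mean log2 ratio was higher in YC than in vehicle livers by 0.85 (exact two-sided permutation test, p = 0.00559, 0.0168 adjusted over 3 comparisons). It was higher in YC than in D0 livers by 0.45 (exact permutation p = 0.0175, adjusted 0.0262), and this difference was 0.32 without YC 6 and YC 7 (exact permutation p = 0.0758) and 0.39 among livers without Y-linked transcripts (exact permutation p = 0.109). Quantile normalization, which does not multiply by 1 factor, gave 0.40 for this difference (exact permutation p = 0.0501). Vehicle minus D0 was -0.39 (exact permutation p = 0.0768, adjusted 0.0768), so a difference was not shown there. Without vehicle 5 it was -0.50 (exact permutation p = 0.0221), and it also passed without vehicle 1 (exact permutation p = 0.042) or vehicle 6 (exact permutation p = 0.0472).

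**Figure D2:**
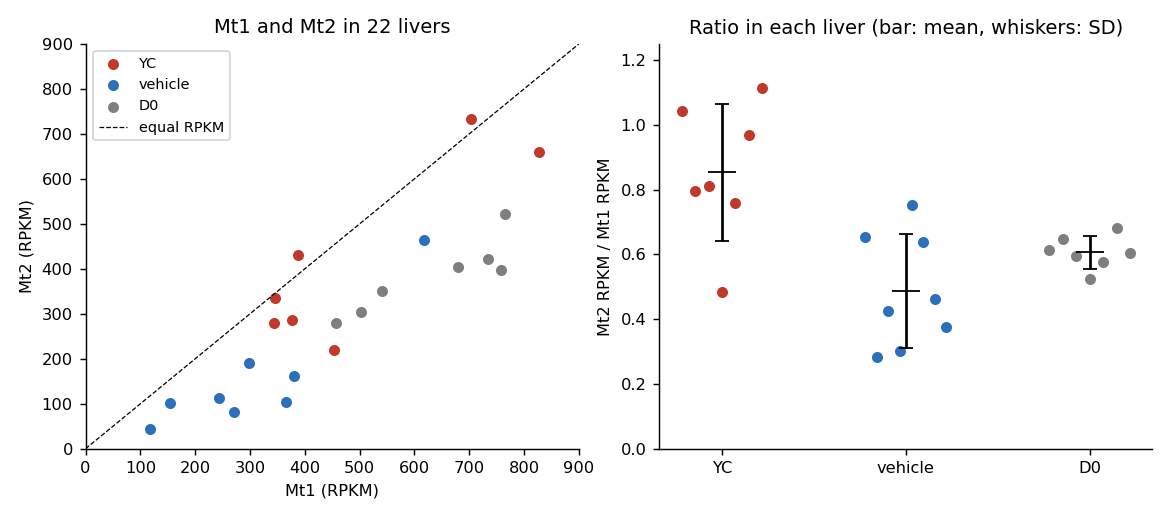
Left, Mt2 against Mt1 in RPKM for 22 livers, with a dashed line of equal RPKM. Right, the ratio of Mt2 to Mt1 in each liver, with the mean as a bar and the SD as whiskers, for YC, vehicle and D0 livers; YC 1 and YC 7 lie above 1, at 1.04 and 1.11.

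The other metallothioneins of the cluster were scarce on day 0. Mt3, known mainly from brain, had a lowest value of 12.0, a median of 23.6 and a highest value of 59.96 RPKM in YC livers, against 0.422, 5.33 and 27.3 RPKM for vehicle livers. In D0 livers Mt3 was listed at 0 in 4 of 7 and reached 0.209 RPKM in D0 5, or 6 reads by the step size. All 8 vehicle livers lay above all D0 livers, and YC and vehicle livers overlapped. Mt3 was higher in YC than in vehicle livers by 2.44 ± 0.53 on the log2(RPKM + 0.5) scale (SE, limma adjusted p = 0.000771) and higher in vehicle than in D0 livers by 3.17 ± 0.53 (SE, limma adjusted p = 3.6e-05). The size of the difference from D0 livers depends on the added 0.5 RPKM, since D0 livers were near 0. Mt4, known from stratified squamous epithelium, was at 0.396 to 2.10 RPKM in YC livers, or 9 to 68 reads. It had 2 reads in vehicle 4, 2 in vehicle 6, 1 in D0 6 and 0 in the other vehicle and D0 livers. Mt4 did not pass the filter on low values and was tested by itself, with exact permutation tests chosen after its values were seen. Its mean log2 value was higher in YC than in vehicle livers by 1.69 (exact permutation p = 0.000311, adjusted over 3 comparisons 0.000874). It was higher in YC than in D0 livers by 1.72 (exact permutation p = 0.000583, adjusted 0.000874). Both are the smallest p that these group sizes allow, which follows once all YC livers lie above the others. No adjustment was made over other genes that failed the filter. Even at its highest, in YC 5, Mt4 stood at 2.10 RPKM against 377 RPKM of Mt1 in the same liver.

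Slc30a1, the exporter, was lowest in vehicle livers. It had a lowest value of 13.3, a median of 18.6 and a highest value of 23.3 RPKM in YC livers, 6.21, 8.58 and 17.5 RPKM for vehicle livers and 22.3, 31.2 and 37.6 RPKM in D0 livers. No vehicle liver reached the D0 range, and 6 of 7 YC livers lay below it too, the exception being YC 7. Vehicle 1 and vehicle 5 held the high vehicle values, 17.5 and 13.5 RPKM, and overlapped the YC range, while the other 6 vehicle livers lay below all YC livers. Mean levels were 18.0 ± 3.85 RPKM for YC (SD, n = 7), 9.69 ± 4.01 RPKM for vehicle (SD, n = 8) and 30.6 ± 5.26 RPKM for D0 livers (SD, n = 7), and each step of this order passed the test. Slc30a1 fell by 1.68 ± 0.19 on the log2 scale in vehicle against D0 livers (SE, limma adjusted p = 1.7e-07). It rose 1.89-fold in YC over vehicle livers, a log2 change of 0.92 ± 0.19 (SE, limma adjusted p = 0.000408), or 0.59 with median-ratio scaling. YC livers were below D0 livers, by a log2 change of -0.76 ± 0.20 (SE, limma adjusted p = 0.00213), or -1.07 with median-ratio scaling.

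Slc39a4 was the importer with the higher level. In YC livers it had a lowest value of 41.1, a median of 86.4 and a highest value of 138 RPKM, in vehicle livers 18.5, 29.5 and 77.4 RPKM, and in D0 livers 29.1, 42.8 and 52.3 RPKM. YC 4 was the low YC liver, and the other 6 lay above every D0 liver. Vehicle livers spread from below to above the D0 range, with vehicle 6 and vehicle 7 at 77.4 and 54.5 RPKM. Mean levels were 88.8 ± 36.4 RPKM for YC (SD, n = 7), 38.4 ± 19.7 RPKM for vehicle (SD, n = 8) and 41.2 ± 7.88 RPKM for D0 livers (SD, n = 7). Slc39a4 rose 2.35-fold in YC over vehicle livers, a log2 change of 1.23 ± 0.27 (SE, limma adjusted p = 0.000654), or 0.90 with median-ratio scaling. It rose 2.02-fold in YC over D0 livers, a log2 change of 1.01 ± 0.28 (SE, limma adjusted p = 0.00365), or 0.70 with median-ratio scaling. Vehicle and D0 livers were neighbours that did not differ beyond their spread (log2 -0.22 ± 0.27, SE, limma adjusted p = 0.489).

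Slc39a14, the importer of the acute phase, divided the YC livers. It was at 29.1 to 42.3 RPKM in YC 1 to YC 5 but at 10.6 RPKM in YC 6 and 8.72 RPKM in YC 7, which were the lowest values of all 22 livers. The median was 31.1 RPKM in YC livers. Vehicle livers had a lowest value of 11.1, a median of 15.4 and a highest value of 31.6 RPKM, with vehicle 1, vehicle 5 and vehicle 8 above 23 RPKM, and D0 livers had 11.5, 16.0 and 21.6 RPKM. Mean levels were 28.4 ± 13.6 RPKM for YC (SD, n = 7), 19.2 ± 7.79 RPKM for vehicle (SD, n = 8) and 15.2 ± 3.64 RPKM for D0 livers (SD, n = 7). None of the comparisons passed the test with all livers, neither YC minus vehicle (log2 0.44 ± 0.30, SE, limma adjusted p = 0.232) nor vehicle minus D0 (log2 0.27 ± 0.30, SE, limma adjusted p = 0.454) nor YC minus D0 (log2 0.71 ± 0.31, SE, limma adjusted p = 0.0593). Without YC 6 and YC 7, the livers with low Saa1 and low Fah, Slc39a14 was higher in YC than in vehicle livers by 0.96 on the log2 scale (limma adjusted p = 0.000986) and higher in YC than in D0 livers by 1.23 (limma adjusted p = 7.1e-05). Leaving out YC 7 alone gave 0.68 for YC minus vehicle (limma adjusted p = 0.0395) and 0.95 for YC minus D0 (limma adjusted p = 0.00598), leaving out YC 6 alone gave 0.91 for YC minus D0 (limma adjusted p = 0.0134), and leaving out D0 7 alone gave 0.80 for YC minus D0 (limma adjusted p = 0.045). Among livers with Y-linked transcripts, which keep YC 1 to YC 3 and all vehicle livers, YC minus vehicle was 0.97 (limma adjusted p = 0.0152). That subset too is without YC 6 and YC 7. Each of these fits left out 1 or both of the lowest YC livers, or D0 7, the highest D0 liver. This in itself widens the difference, so their p-values add no support for a rise.

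**Figure D3:**
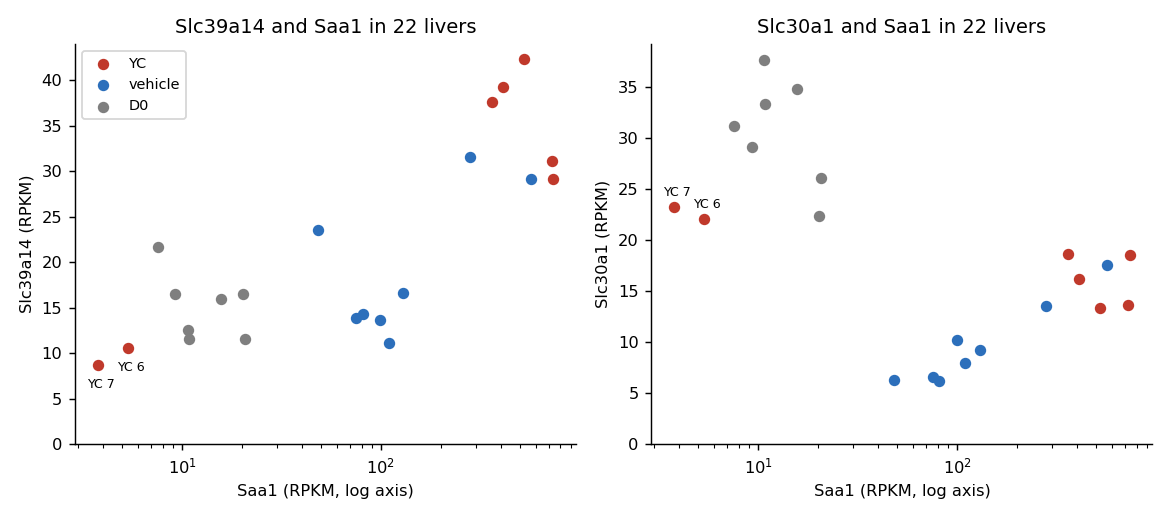
Slc39a14 (left) and Slc30a1 (right) against Saa1 in 22 livers, in RPKM, with Saa1 on a log axis. YC 6 and YC 7, at 5.33 and 3.77 RPKM of Saa1, lie below all D0 livers (7.58 RPKM or more) on the Saa1 axis and have the lowest Slc39a14.

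Over the 5 members, 4 rose in YC against vehicle livers (Mt1, Mt2, Slc30a1 and Slc39a4) and 0 fell, where 44.6% of all genes tested rose and 6.14% fell. The median log2 fold change of the members was 0.92, against 0.31 over all genes. With median-ratio scaling 3 of 5 rose, and the member lost was Mt1, where 18.6% of all genes rose and 16.6% fell. In vehicle against D0 livers 3 of 5 fell (Mt1, Mt2 and Slc30a1) and 0 rose, where 29.9% of all genes fell and 28.2% rose, and the median of the members was -1.19 against 0.01 over all genes. In YC against D0 livers 1 of 5 rose (Slc39a4), where 41.2% of all genes rose, and 1 of 5 fell (Slc30a1), where 12.3% fell. With median-ratio scaling 1 of 5 rose and 2 fell there, Mt1 being the added one, where 26.9% of all genes rose and 27.1% fell. In all, 50.7% of genes were called in YC against vehicle, 58.1% in vehicle against D0 and 53.4% in YC against D0 livers. Each pair of comparisons shares a group of livers, so their directions are not independent of each other. Without YC 6 and YC 7, the changes of Mt1, Mt2, Slc30a1 and Slc39a4 in YC minus vehicle were 0.90, 1.61, 0.78 and 1.31 on the log2 scale.

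**Figure D4:**
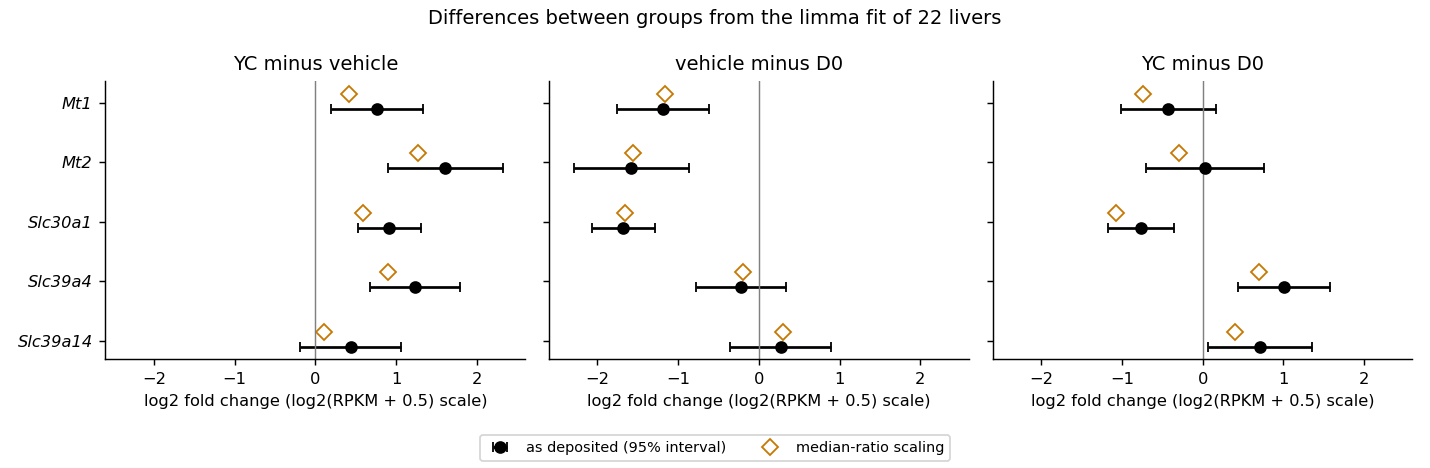
Log2 fold change of each member in the 3 comparisons of groups, from limma on log2(RPKM + 0.5). Black points with 95% intervals are as deposited and open diamonds use median-ratio scaling; in YC minus vehicle the intervals of 4 members lie above 0 and that of Slc39a14 spans it.

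Of the 21 other SLC30 and SLC39 genes in the table, 17 passed the filter on low values; Slc30a2, Slc30a3, Slc30a8 and Slc39a12 did not. In YC against vehicle livers 11 of the 17 rose and 1 fell, where 44.6% of all genes rose and 6.14% fell, with a median log2 fold change of 0.46 against 0.31 over all genes. With median-ratio scaling 6 rose and 1 fell, where 18.6% of all genes rose and 16.6% fell, with a median of 0.14 against 0.02. Slc39a7, which releases zinc from the endoplasmic reticulum, was the most abundant of them at 91.5 ± 22.8 RPKM for YC (SD, n = 7) and 48.6 ± 11.8 RPKM for vehicle livers (SD, n = 8), and rose by 0.91 ± 0.17 on the log2 scale (SE, limma adjusted p = 0.000129). Slc39a9, a Golgi transporter, and Slc39a13 lay higher in all 7 YC livers than in any vehicle liver. For Slc39a13 the nearest livers were close, YC 4 at 6.107 and vehicle 7 at 6.099 RPKM. The share of all genes tested whose groups did not overlap was not counted for any comparison. Slc39a9 changed by 0.70 ± 0.11 on the log2 scale (SE, limma adjusted p = 2.2e-05) and Slc39a13 by 0.69 ± 0.17 (SE, limma adjusted p = 0.00182). Slc39a13 was no longer called with median-ratio scaling (limma adjusted p = 0.0528). Slc30a5 and Slc30a6, which form a complex that loads zinc into the secretory pathway, rose by 0.74 ± 0.13 (SE) and 0.77 ± 0.12 (SE). Slc30a4 rose by 0.79 and the importer Slc39a6 by 0.89. Smaller rises were those of Slc30a7 (0.46), Slc39a8 (0.46), Slc39a11 (0.42) and Slc30a9 (0.26), each not called with median-ratio scaling, where Slc30a9 turned to -0.07; it turned to -0.06 with quantile normalization. Without YC 6 and YC 7, Slc39a8 (0.25, limma adjusted p = 0.0904) and Slc30a9 (0.22, limma adjusted p = 0.0773) were not called. With 1 liver left out, the call was lost in 8 of 15 cases for Slc39a11 and in 4 of 15 for Slc30a9.

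Slc30a10, which in human and mouse exports manganese from hepatocytes, was the zinc transporter family gene that fell. It ran from 0.421 through a median of 1.82 to 4.61 RPKM in YC livers, from 1.87 through 4.58 to 6.12 RPKM in vehicle livers and from 10.8 through 14.6 to 16.7 RPKM in D0 livers. The lowest values were those of YC 6 and YC 7, and no day 28 liver reached the D0 range. The log2 change was -0.90 ± 0.30 for YC minus vehicle (SE, limma adjusted p = 0.0176), -1.77 ± 0.30 for vehicle minus D0 (SE, limma adjusted p = 3.9e-05) and -2.66 ± 0.31 for YC minus D0 (SE, limma adjusted p = 2.5e-07). Without YC 6 and YC 7 the change for YC minus vehicle was -0.39 and was not called (limma adjusted p = 0.162).

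In vehicle against D0 livers 9 of the 17 other transporters fell and 3 rose, where 29.9% of all genes fell and 28.2% rose. Their median was -0.38 on the log2 scale. Those that rose were Slc39a1 (0.57), Slc39a3 (0.78) and Slc39a13 (0.56). Slc39a6 (-1.15), Slc39a9 (-0.70) and Slc30a5 (-0.94) were among those that fell. In YC against D0 livers 8 rose, 3 fell and 6 were not called, where 41.2% of all genes rose and 12.3% fell. With median-ratio scaling 5 rose and 7 fell there, where 26.9% of all genes rose and 27.1% fell.

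**Figure D5:**
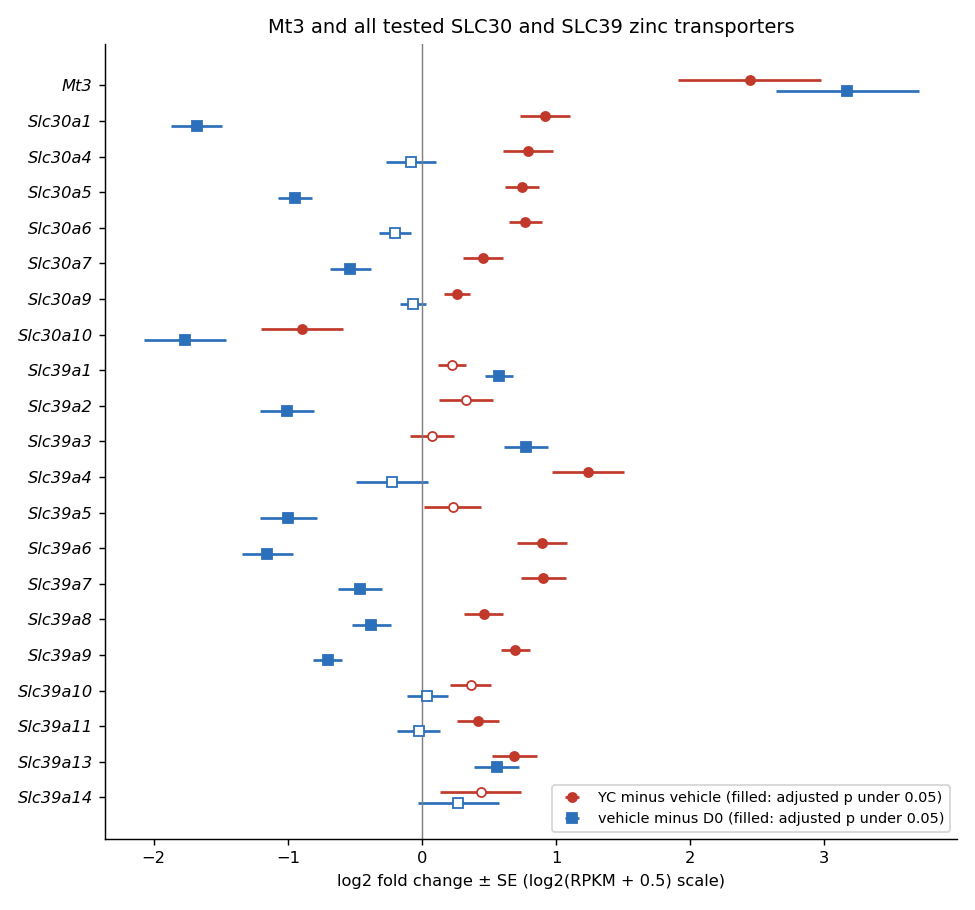
Log2 fold change with its SE for Mt3 and the tested SLC30 and SLC39 genes, members included, in YC minus vehicle (circles) and vehicle minus D0 (squares); filled symbols have a limma adjusted p under 0.05. Slc30a10 is the gene called below 0 in both comparisons.

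MTF1, the metal-sensing factor itself, had a transcript that was called in the same directions as Mt2 in both comparisons with vehicle livers. Mtf1 was at 2.15 to 4.20 RPKM in YC livers, 1.34 to 2.13 RPKM in vehicle livers and 3.35 to 4.24 RPKM in D0 livers. YC and vehicle livers did not overlap, nor did vehicle and D0 livers. The nearest YC and vehicle livers were close, YC 4 at 2.151 and vehicle 1 at 2.135 RPKM. Mtf1 rose by 0.76 ± 0.12 on the log2 scale in YC over vehicle livers (SE, limma adjusted p = 1.7e-05), or 0.48 with median-ratio scaling. It fell by 0.98 ± 0.12 in vehicle against D0 livers (SE, limma adjusted p = 2.8e-07). For YC minus D0 the log2 change of Mtf1 was -0.22 and not called as deposited (limma adjusted p = 0.118), but -0.50 and called with median-ratio scaling (limma adjusted p = 0.000354). Of the 4 tested genes of the list of Mtf1 and its other targets, 2 rose in YC against vehicle livers (Mtf1 and Ndrg1, 1.39) and 1 fell (Sepw1, -0.95). Of all genes, 44.6% rose and 6.14% fell there. In vehicle against D0 livers 3 of the 4 listed genes rose and 1 fell, where 28.2% of all genes rose and 29.9% fell. In YC against D0 livers 2 of the 4 rose and 0 fell, where 41.2% of all genes rose and 12.3% fell. With median-ratio scaling 2 rose and 2 fell in YC against vehicle livers, with a median of 0.01 against 0.32 as deposited, and 2 rose and 1 fell in YC against D0 livers. Under that scaling 18.6% of all genes rose and 16.6% fell in YC against vehicle, and 26.9% and 27.1% in YC against D0 livers.

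Genes of the other inputs and of other metals were counted from the same fit, to be read against the shares of all genes that rose and fell, 44.6% and 6.14% in YC against vehicle, 28.2% and 29.9% in vehicle against D0 and 41.2% and 12.3% in YC against D0 livers. Counts with median-ratio scaling are to be read against 18.6% and 16.6% in YC against vehicle and 26.9% and 27.1% in YC against D0 livers. Of 10 NRF2 targets, genes of the antioxidant response, 9 rose and 0 fell in YC against vehicle livers (median log2 1.28; Hmox1 2.42 and Txnrd1 1.33), and 7 rose with median-ratio scaling. In vehicle against D0 livers 9 of the 10 fell and 1 rose (median -1.74), and in YC against D0 livers 6 fell and 1 rose. Of 20 acute phase genes driven by IL-6 and STAT3, 5 rose and 1 fell in YC against vehicle livers (Lcn2 2.35 and Hpx -0.98), 9 rose and 0 fell in vehicle against D0 livers, and 11 rose and 0 fell in YC against D0 livers. Of 10 glucocorticoid response genes, 2 rose and 2 fell in YC against vehicle livers (Tsc22d3 -1.30 and Tat -1.06), 5 rose and 1 fell in vehicle against D0 livers, and 6 rose and 1 fell in YC against D0 livers. Thus in vehicle against D0 livers, where Mt1 and Mt2 fell, the called NRF2 targets mostly fell and the called acute phase and glucocorticoid genes mostly rose; the part of these inputs in the levels of Mt1 and Mt2 was not tested. Of 12 copper genes, 4 rose and 2 fell in YC against vehicle livers, and the copper pumps Atp7a (1.13) and Atp7b (1.20) were among those that rose. Of the same 12, 2 rose and 4 fell in vehicle against D0 livers, and 4 rose and 1 fell in YC against D0 livers. Of 9 iron and manganese genes, 3 rose and 0 fell in YC against vehicle livers (the transferrin receptor Tfrc 1.28 and the iron importer Slc11a2 0.64), 2 rose and 2 fell in vehicle against D0 livers, and 1 rose and 1 fell in YC against D0 livers. With median-ratio scaling the counts for YC against vehicle livers were 1 higher and 2 lower for the acute phase and also for the glucocorticoid genes, 2 higher and 4 lower for copper, and 1 higher and 1 lower for iron and manganese. For YC against D0 livers they were 6 higher and 0 lower for the acute phase, 1 higher and 7 lower for the NRF2 targets, 2 higher and 5 lower for copper, and 1 higher and 3 lower for iron and manganese.

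Cell type markers also moved between the groups, and their counts too stand beside those shares of all genes. Of 11 hepatocyte markers 0 rose and 4 fell in YC against vehicle livers (Serpina1a -1.29 and Alb -1.10 on the log2 scale), and their summed level was 33050 to 67800 RPKM in YC livers, 63950 to 97700 RPKM in vehicle livers and 51840 to 71430 RPKM in D0 livers, so liver identity was present in all libraries. Of 8 neutrophil markers 4 rose and 0 fell (Mpo 2.29 and Elane 2.04), with sums of 37.4 to 402 RPKM in YC livers, 43.8 to 163 RPKM in vehicle livers and 4.22 to 56.8 RPKM in D0 livers. Of 7 tested bile duct markers 3 rose and 0 fell (Cldn4 2.99 and Sox9 0.53), with sums of 128 to 363 RPKM in YC livers, 129 to 349 RPKM in vehicle livers and 33.0 to 57.4 RPKM in D0 livers. Of 8 Kupffer cell markers 0 rose and 1 fell (C1qa -0.74; Clec4f -0.52 was not called), with sums of 266 to 694 RPKM in YC livers, 357 to 1208 RPKM in vehicle livers and 115 to 221 RPKM in D0 livers. Of 8 stellate cell markers 3 rose and 0 fell (Lrat 1.35 and Reln 0.64), of 7 endothelial markers 1 rose and 2 fell (Lyve1 0.94 and Dnase1l3 -0.69), of 5 tested lymphocyte markers 0 rose and 3 fell (Cd3d -1.10 and Nkg7 -0.89), and of 2 tested erythroid markers 0 rose and 1 fell (Alas2 -2.01; Klf1 -0.27 was not called). Slc39a4 and Mt4 are known from epithelia, so markers of gut and pancreas were read as well. Of 3 tested intestinal markers 2 rose and 0 fell (Mep1b 1.80 and Vil1 0.91). Mep1b passed the filter only through YC livers, at 0.586 RPKM or more there against 0.321 RPKM or less in vehicle livers. Its rise thus followed from the filter. Sums over 8 genes were 33.4 to 120 RPKM in YC livers, 28.0 to 96.7 RPKM in vehicle livers and 25.2 to 50.6 RPKM in D0 livers. Most of each sum was Fabp2, which was not called, at 118.7 of 120.3 RPKM in YC 6. The defining genes Sis, Cdx1 and Cdx2 were at 0 in all vehicle livers and Cdx1 in all D0 livers. In YC livers they reached 0.546, 0.0787 and 0.0882 RPKM, each in YC 4, which also held Alpi at 32.7 RPKM, against 0.238 RPKM or less in the other 6 YC livers, 0.0138 RPKM or less in vehicle livers and 0.0811 RPKM or less in D0 livers. Of 2 tested acinar markers 1 rose and 0 fell (Cela1 1.10; Cela2a 0.21 was not called), with sums over 9 genes of 25.1 to 928 RPKM in YC livers, 16.8 to 309 RPKM in vehicle livers and 5.61 to 11.7 RPKM in D0 livers. Outside YC 4 and vehicle 1 these sums were mostly Cela1, at 53.46 of 54.17 RPKM in YC 1 and 24.65 of 25.53 in vehicle 2. The medians of these sums in YC, vehicle and D0 livers were 54.2, 25.9 and 9.43 RPKM and so followed Cela1. The highest sums were those of YC 4 and vehicle 1, which stood apart with Ctrb1 at 385 and 125.7 RPKM against less than 1 RPKM in every other liver. Without YC 4 and vehicle 1, left out after these values were seen, Mt2, Slc30a1 and Slc39a4 rose in YC against vehicle livers by 1.70, 1.11 and 1.33 on the log2 scale, while Mt1 (log2 0.65, limma adjusted p = 0.0584) was no longer called. In vehicle against D0 livers 7 of 8 Kupffer cell, 7 of 8 neutrophil, 5 of 7 tested bile duct and 5 of 8 stellate cell markers rose, and of the hepatocyte markers 3 rose and 2 fell. In YC against D0 livers 8 of 8 neutrophil, 7 of 7 tested bile duct, 7 of 8 Kupffer cell and 5 of 8 stellate cell markers rose, and of the 11 hepatocyte markers 1 rose and 5 fell. With median-ratio scaling, YC against vehicle livers had 0 hepatocyte markers higher and 6 lower, 2 neutrophil markers higher and 0 lower, 1 bile duct marker higher and 0 lower, 0 Kupffer cell markers higher and 4 lower, 1 stellate cell marker higher and 1 lower, 0 endothelial markers higher and 4 lower, and 1 intestinal marker higher and 0 lower. The intestinal marker counted there was Mep1b. These scaled counts stand beside 18.6% of all genes higher and 16.6% lower. The part of these cell types in the members' levels was not tested.

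Within groups, 60 relations among the members and with Fah and Saa1 were computed on log2 values, and 2 passed adjustment over the family by Pearson's r and 0 by Spearman's rho. In D0 livers Mt1 and Mt2 went together (Pearson r = 0.923, exact permutation p = 0.000992, adjusted 0.0298; Spearman rho = 0.893, exact permutation p = 0.0123, adjusted 0.185; n = 7), and r was 0.748 without D0 1 and D0 7. In vehicle livers the same pair gave r = 0.852 (exact permutation p = 0.00903, adjusted 0.181; rho = 0.786, exact permutation p = 0.0279, adjusted 0.335; n = 8), with r = 0.387 without vehicle 5 and vehicle 8. In YC livers it gave r = 0.793 (exact permutation p = 0.0417, adjusted 0.245; rho = 0.571, exact permutation p = 0.2, adjusted 0.522; n = 7), and r was -0.455 without YC 1 and YC 2, so that relation rests on those 2 livers. In vehicle livers Slc30a1 went with Saa1 (r = 0.949, exact permutation p = 0.000595, adjusted 0.0298; rho = 0.857, exact permutation p = 0.0107, adjusted 0.185; n = 8), with r = 0.746 without vehicle 1 and vehicle 5. In YC livers Saa1 fell into separate clusters, YC 6 and YC 7 against the other 5, so no pooled r with Saa1 is given there, although those 5 relations count among the 60 and none passed adjustment. Without YC 6 and YC 7, Saa1 with Slc39a14 gave r = -0.761 in YC livers. For vehicle livers this pair gave r = 0.600 (exact permutation p = 0.112, adjusted 0.42, n = 8), and r was -0.666 without vehicle 1 and vehicle 5. The 2 YC livers with low Saa1 had the highest Slc30a1 of the group, at 22.1 and 23.3 RPKM, which is the opposite order from vehicle livers. That difference between groups was not tested. No relation with Fah passed adjustment. Fah with Slc30a1 gave r = -0.879 in YC livers (exact permutation p = 0.0135, adjusted 0.202, n = 7), and r = -0.738 without YC 4 and YC 7. In vehicle livers the pair gave r = -0.76 (exact permutation p = 0.0269, adjusted 0.245, n = 8), and r = -0.277 without vehicle 1 and vehicle 4. In D0 livers r was -0.34 (exact permutation p = 0.457, n = 7). Slc30a1 and Slc39a14 gave r = -0.818 in YC livers (exact permutation p = 0.0337, adjusted 0.245, n = 7). By rank, rho was -0.821 (exact permutation p = 0.0341, adjusted 0.341), and neither passed adjustment. YC 6 and YC 7 held both the lowest Slc39a14 and the highest Slc30a1 of the group. The r of -0.945 without YC 3 and YC 4 keeps them. Since r without YC 6 and YC 7 was not computed, this relation may rest on those 2 livers.

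Likeness to other genes was read as Pearson's r over all 22 livers after each group's mean was removed, ranked over 7133 genes that averaged 5 RPKM or more, as a description of libraries that share depth and tissue makeup. Mt1 and Mt2 had r = 0.839 with each other. The genes most like Mt1 were Kdelr2 (0.755), a receptor that returns proteins to the endoplasmic reticulum, Il3ra (0.725) and Prpsap1 (0.725). Those most like Mt2 were Srprb (0.786), a part of the receptor for the signal recognition particle, Derl1 (0.783), which acts in removal of misfolded proteins, and Frmd8 (0.781). Slc30a1 was most like Reep3 (0.866), Trip4 (0.854) and Wdr48 (0.839). Slc39a4 was most like Tyw1 (0.938), Surf4 (0.910), a cargo receptor of the early secretory pathway, and Tpst1 (0.909). Slc39a14 was most like Fgg (0.919), the fibrinogen gamma chain of the acute phase, Pex26 (0.918) and Zfp598 (0.914). Removing group means leaves the gap in Slc39a14 between YC 6 and YC 7 and the other YC livers, and r without those livers was not computed. Among the members, Slc39a14 and Slc39a4 had an r of -0.002 with each other.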

How the data were processed

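RNA was taken from whole mouse livers with TRIzol, and polyadenylated RNA was fragmented and sequenced, per the labels' protocols. The authors deposited 1 table of RPKM values with 1 column per library. Per the submitters' processing notes the tools were TopHat 1.4.1 and Cufflinks 1.3.0 with build mm10; the sources used here do not say which step made the RPKM, with which annotation, or whether strand was used. Coordinates and transcripts are from GENCODE M21, and promoters from RefSeq.

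Depth was read from the steps of low values, from 117 genes of 478 with a single transcript and a step. At a tolerance of 0.02, 1885 of 4800 genes (39.3%) gave whole reads in all libraries, so no count test was run, and whether these are reads or fragments is not known. The closest replicates, YC 1 and YC 2, differed by more than sampling noise, and none was counted as a repeat.

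The 12537 genes that reached 0.5 RPKM in 7 or more libraries were fitted on log2(RPKM + 0.5) with limma 3.58.1 (trend and robust eBayes) in R 4.3.3, with 3 groups in 1 model and Benjamini-Hochberg adjustment over all genes, called at an adjusted p under 0.05. The added 0.5 understates changes of low genes. The fit was tested on simulated data. Ratios, Fah, Mt4 and correlations used exact two-sided permutation tests. The lowest, median and highest values stand for each group. Python 3.11.15 served for the rest.

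Groups come from the treatment and title labels. The members, gene lists and tests were chosen with earlier results of these data known. Genes named are the 5 members, Mt3, Mt4, the other zinc transporters called in YC minus vehicle, the 2 genes of each other list with the smallest adjusted p in YC minus vehicle, Fah, and the 3 genes most like each member; Saa1 entered the correlations, and Slc39a1, Slc39a3, Sepw1, Sis, Cdx1, Cdx2, Alpi, Ctrb1 and the transporters that failed the filter were named after their values were seen. The 19 lists held 176 entries, of which 173 were in the table. Alternatives were 2 other pseudocounts, 2 other filters, 3 other scalings, array weights, no trend, 2 groups alone, a replicate block, each replicate left out, YC 6 and YC 7 left out, YC 4 and vehicle 1 left out, and livers split by Y-linked transcripts. The split for YC minus D0, the fit without YC 4 and vehicle 1 and the tests of Mt4 were chosen after seeing the data.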

Additional observations from a re-analysis of the deposited data

Results flagged for a closer look

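Among 21 groups of values checked for a sample far from the others, 3 stood out, and chance alone flags about 1 in 20. Mt2 in vehicle livers had its highest value, 464.1 RPKM, in vehicle 5, and the gap to the next liver was 0.65 of the group's range. Mt3 in vehicle livers had its highest value, 27.3 RPKM, in vehicle 3, with a gap of 0.572 of the range. Mt3 in D0 livers had its highest value, 0.209 RPKM, in D0 5, with a gap of 0.653 of the range; it rests on 6 reads. Without vehicle 5 the direction and the call of Mt2 were kept in YC minus vehicle (log2 1.88) and in vehicle minus D0 (log2 -1.85).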

How the results depend on the processing

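Calls of Mt2, Slc30a1 and Slc39a4 in YC minus vehicle, of Mt1, Mt2 and Slc30a1 in vehicle minus D0 and of Slc30a1 and Slc39a4 in YC minus D0 held in every alternative run. In YC minus vehicle the log2 change of Mt1 was 0.422 with median-ratio scaling, 0.588 with the replicate block, 0.762 when only those 2 groups were fitted (limma adjusted p = 0.0538), 0.651 without YC 4 and vehicle 1 and 1.10 among livers with Y-linked transcripts, none of them called, and 0.588 to 0.93 when 1 liver was left out. Slc39a14 was called in YC minus vehicle with array weights (0.926), without YC 6 and YC 7 (0.962) and among livers with Y-linked transcripts (0.974). The last 2 of these runs lack YC 6 and YC 7, the livers lowest in Slc39a14. With 1 liver left out Slc39a14 ran from 0.309 to 0.679 in YC minus vehicle. In YC minus D0 it was called with array weights (1.10) and without YC 6 and YC 7 (1.23), and ran from 0.58 to 0.95 with 1 liver left out. Mt1 in YC minus D0 was called with median-ratio scaling (-0.741) and among livers without Y-linked transcripts (-0.677). Mt2 in YC minus D0, not called in any alternative, changed sign with median-ratio scaling (-0.286), quantile normalization (-0.022) and among livers without Y-linked transcripts (-0.283), and ran from -0.125 to 0.164 with 1 liver left out. The log2 ratio of Mt2 to Mt1 in YC minus D0 missed 0.05 with quantile normalization (0.396), without YC 6 and YC 7 (0.324) and among livers without Y-linked transcripts (0.393); in vehicle minus D0 it ran from -0.495 to -0.293 with 1 liver left out and passed without vehicle 1, vehicle 5 or vehicle 6, and at -0.467 without YC 4 and vehicle 1. With a mean of at least 5 RPKM as filter, which tests fewer genes, 3816 genes were called in YC minus vehicle, 4061 in vehicle minus D0 and 3560 in YC minus D0, with 7 and 5 of the other zinc transporters in the last 2 of these. In YC minus vehicle 7 other zinc transporters were called with median-ratio scaling, where Slc30a9 turned to -0.07, and 6 with quantile normalization, where it turned to -0.059. Mt1 with Mt2 within YC livers turned to -0.455 without the 2 farthest livers. The cause of these changes was not tested. The groups share replicate numbers but nothing in the labels pairs them. Deviations of livers with the same number correlated at -0.386 to 0.227, and in most cases a liver went best with another number. With the replicate block 6002 genes were called in YC minus vehicle, 7129 in vehicle minus D0 and 6486 in YC minus D0, and the call of Mt1 in YC minus vehicle was the 1 call among members that differed; among other transporters named there, Slc30a10 (-0.84, limma adjusted p = 0.0543) and Slc39a11 (0.33, limma adjusted p = 0.118) were no longer called. Since no other group has a number 8, the block fit sets vehicle 8 aside. Its estimate of 0.588 for Mt1 is also that without vehicle 8, so its changed calls cannot be laid to the numbering alone. Livers with and without Y-linked transcripts could not be compared within vehicle minus D0. Depth limits Mt3 and Mt4 in D0 livers, which rest on 0 to 6 reads.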
